A study of Homo sapiens with 2 samples.

Results

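The 9 interferon-stimulated genes ISG15, IFI6, IFI27, IFITM1, IFITM2, IFITM3, IFIT1, OAS1 and ISG20 were followed in a single-cell RNA series of 2 breast cancer lines, out of 30796 genes in the deposited matrix. The genes were taken as a named list and found by symbol and Ensembl identifier, and all 9 were present. The series holds 1 library of each line, MDAMB468 and CAL51, both labelled triple negative breast cancer, a class of tumour without oestrogen receptor, progesterone receptor or ERBB2 amplification. The labels give no treatment, genotype or time for either line, so whether the cells were treated is not stated. Cells were captured in droplets with barcoded beads (Drop-seq), and each messenger RNA was counted once at its 3′ end through a unique molecular identifier (UMI).

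Interferons are secreted proteins that warn neighbouring cells of infection. Type I interferons (IFNA, IFNB1) and type III interferons (IFNL) bind their receptors, the kinases JAK1 and TYK2 are activated, and a complex of transcription factors that includes IRF9 enters the nucleus and binds the interferon-stimulated response element in the promoters of its targets. In epithelial tumours some of these targets are on without infection, and IRF3, activated by nucleic acid sensors such as IFIH1, can induce a subset of them, IFIT1 and ISG15 among them, without interferon.

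The response element is legible in the promoters of the genes themselves. RefSeq windows from 250 bases before to 50 bases after a start site (build GRCh38.p14) were found for 8 of the 9 genes, all but IFITM2. IFI27 had 2 windows, of which only the first along the chromosome was read. The core of the element, GAAA and GAAA parted by any 2 bases, searched on both strands with overlapping matches counted, occurred in 7 of these 8 genes and in 3.57% of all 35116 windows. OAS1 held the shorter spacing GAAANGAAA, present in 3.12% of all windows. The stretches are printed in the direction of the gene because they hold the matched cores of the 8 genes with a window, and capitals mark the matched cores (in IFIT1, and in the first of the IFI27 cores, the match is on the opposite strand and reads TTTC, any 2 bases, TTTC). The stretches lie at chr1:1013374-1013409 (ISG15), chr1:27672266-27672358 (IFI6, minus strand), chr14:94110618-94110660 (IFI27), chr11:313990-314019 (IFITM1), chr11:320876-320922 (IFITM3, minus strand), chr10:89392497-89392539 (IFIT1), chr12:112906935-112906961 (OAS1) and chr15:88638937-88638966 (ISG20).
ISG15: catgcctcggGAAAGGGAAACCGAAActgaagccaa
IFI6: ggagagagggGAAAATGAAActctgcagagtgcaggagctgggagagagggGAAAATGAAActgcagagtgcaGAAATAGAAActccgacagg
IFI27: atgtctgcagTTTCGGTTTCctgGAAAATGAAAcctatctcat
IFITM1: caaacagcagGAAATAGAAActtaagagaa
IFITM3: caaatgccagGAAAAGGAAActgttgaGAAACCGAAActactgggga
IFIT1: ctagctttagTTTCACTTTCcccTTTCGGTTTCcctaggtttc
OAS1: cccttctgagGAAACGAAAccaacagc
ISG20: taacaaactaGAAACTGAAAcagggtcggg
At least 2 cores stood in the windows of ISG15, IFI6, IFI27, IFITM1, IFITM3 and IFIT1, against 0.259% of all windows. In ISG15 the 2 cores overlap, and of the 2 in the IFITM1 window 1 lies outside the printed stretch. IFI6 had 3, of which the first 2 share their letters and the bases just before them. The STAT dimer spacing TTCNNNGAA was found once each in the IFI27, IFITM1 and OAS1 windows and in 7.66% of all windows. A match describes the letters of the window and does not show that a factor was bound there.

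The MDAMB468 library held 306 barcodes with 5501900 UMIs and the CAL51 library 1346 barcodes with 16223444 UMIs, after 31 CAL51-labelled barcodes whose sequence also occurred in MDAMB468 were left out. Median depth was 10016.5 and 8635 UMIs per barcode, with ranges of 2501 to 134213 and 2506 to 113702. Satellites, barcodes 1 base away from one with at least 5 times their UMIs, numbered 64 in MDAMB468 and 7 in CAL51, and they held 215868 and 38491 UMIs. The epithelial markers KRT8, KRT18 and EPCAM were present in both lines, KRT7 had 5243 UMIs in MDAMB468 and 0 in CAL51, and CDH1 had 7 in CAL51. ESR1 had 3 and 0 UMIs and PGR 1 and 1. ERBB2 had 39 and 262. Of the 6 epithelial markers looked up, 4 were at least 2-fold higher in MDAMB468 and 1 in CAL51. Leukocyte markers summed to 1.82 CPM (UMIs per 1000000) in MDAMB468 and 0.986 CPM in CAL51, with PTPRC at 0 and 3 UMIs. Fibroblast and endothelial markers summed to 5.27 CPM in MDAMB468 and 61.3 CPM in CAL51, where a single marker reached 53.2 CPM.

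Of the 9 genes, 7 were at least 2-fold higher in MDAMB468 on the log2(CPM + 1) scale: IFI6, IFI27, IFITM1, IFITM3, IFIT1, OAS1 and ISG20. IFITM2 alone was at least 2-fold higher in CAL51, and ISG15 lay within 2-fold. Among the 15347 genes with at least 20 UMIs over both lines, 15.8% were at least 2-fold higher in MDAMB468 and 18.6% in CAL51. The median log2 difference was 2.17 over the 9 genes and -0.13 over all genes. Each line is 1 library, so no test of the lines was possible, and the exact 95% intervals given with levels, folds and shares cover counting error only. All 9 genes passed the minimum of 20 UMIs, but OAS1 and IFI27, with 2 and 9 UMIs in CAL51, did so only through MDAMB468.

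**Figure D1:**
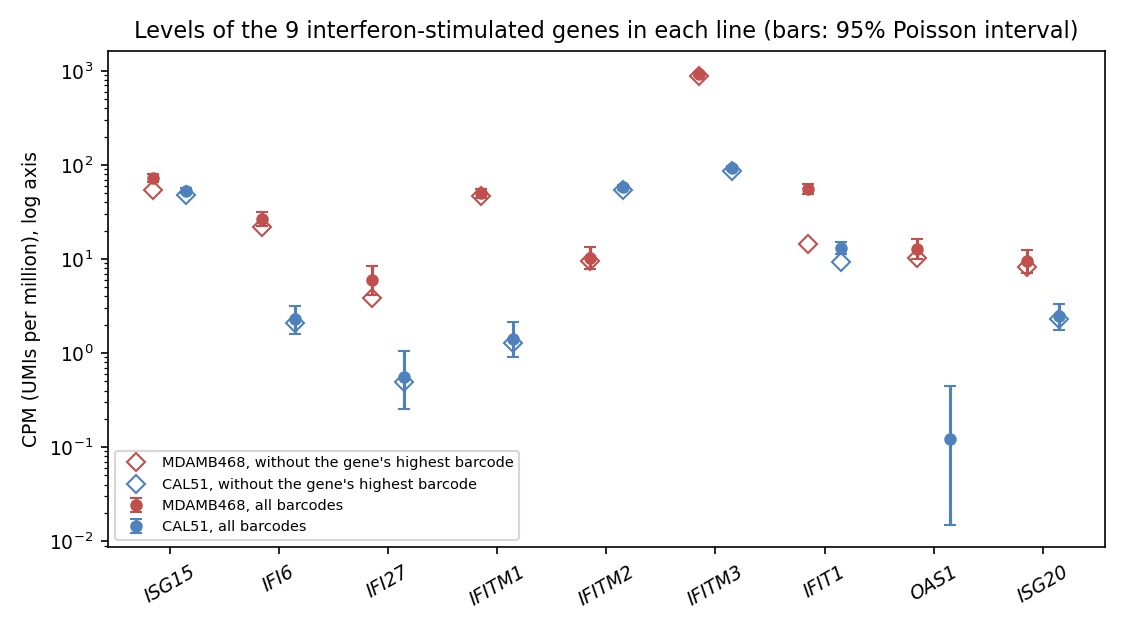
Level of each gene in MDAMB468 (red) and CAL51 (blue) as CPM on a log axis, with exact 95% Poisson intervals as bars; open diamonds leave out the barcode with the most UMIs of that gene (no diamond where nothing remains, as for OAS1 in CAL51). Without it IFIT1 drops from 55.4 to 14.5 CPM in MDAMB468, while IFITM3 stays near 900 CPM (917 and 887).

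The IFITM genes encode small membrane proteins that hinder the fusion of entering viruses, and their 3 neighbouring copies at chr11 differed in opposite directions. IFITM3 (chr11:319669-327537, minus strand) gave 5044 UMIs in MDAMB468 and 1513 in CAL51, or 917 CPM (892 to 942) against 93.3 CPM (88.6 to 98.1). It was 9.83-fold higher in MDAMB468 (9.28 to 10.4). At least 1 UMI of IFITM3 was present in 300 of 306 MDAMB468 barcodes (98.04%) and in 662 of 1346 CAL51 barcodes (49.2%). A barcode held from 0 to 164 IFITM3 UMIs in MDAMB468 with a median of 9, and from 0 to 109 in CAL51 with a median of 0. These shares are at unequal depth per barcode, and at 2500 UMIs per barcode they were 87.9% and 19.4%.

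IFITM1 (chr11:313506-315272, plus strand) gave 274 UMIs in MDAMB468 and 23 in CAL51, or 49.8 CPM (44.1 to 56.1) against 1.42 CPM (0.899 to 2.13). The ratio was 35.1 in favour of MDAMB468 (22.9 to 56.4), and 122 MDAMB468 barcodes (39.9%) but 22 CAL51 barcodes (1.63%) had a UMI. IFITM2 (chr11:307631-315272, plus strand) went the other way: 57 UMIs in MDAMB468 and 939 in CAL51, or 10.4 CPM (7.85 to 13.4) against 57.9 CPM (54.2 to 61.7). It was 5.59-fold higher in CAL51 (4.27 to 7.43), where 495 barcodes (36.8%) had a UMI against 37 (12.1%) in MDAMB468. The line with more IFITM1 therefore had less IFITM2.

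IFITM1 and IFITM2 cannot be fully separated in these counts. In the GENCODE annotation, release 29, the IFITM2 span contains all of IFITM1 on the same strand, and the sources used here do not say how reads were assigned to the pair. Of the 50-base windows of annotated transcripts, 32.0% of those of IFITM1, 34.1% of those of IFITM2 and 17.4% of those of IFITM3 also occurred in a transcript of another gene, mostly each other. For ISG15, IFI6 and IFI27 no window was shared, and for IFIT1, OAS1 and ISG20 the share was 1.02%, 0.215% and 0.118%. The more distant relative IFITM10 had 46 and 11 UMIs, a log2 difference of 2.48. Of 11 other genes near the IFITM genes at 11p15.5 that passed the minimum, 2 were at least 2-fold higher in MDAMB468 (PKP3, 2.14, a desmosomal protein, and B4GALNT4, 2.09), 1 in CAL51 (SIRT3, -1.18, a mitochondrial deacetylase) and 8 within 2-fold, with a median of -0.35. Of the 2 higher in MDAMB468, 1 had under 20 UMIs in CAL51.

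ISG15, a ubiquitin-like protein that is attached to other proteins, was the gene closest between the lines. Its 403 UMIs in MDAMB468 and 867 in CAL51 (chr1:1001138-1014540, plus strand) came to 73.2 CPM (66.3 to 80.8) and 53.4 CPM (49.9 to 57.1), a ratio of 1.37 (1.21 to 1.54). UMIs of ISG15 were in 110 MDAMB468 barcodes (35.9%) and 309 CAL51 barcodes (23.0%). The genes that attach and remove ISG15 lay further apart on this scale. Its conjugating enzyme UBE2L6 had 190 UMIs in MDAMB468 and 9 in CAL51 (log2 difference 4.51), the ligase HERC5 had 31 and 240 (-1.25), and the protease USP18, which removes ISG15 and also restrains the type I receptor, had 81 and 104 (1.09). The activating enzyme UBA7 had 5 and 1 UMIs, under the minimum.

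IFIT1 binds foreign RNA by its cap structure. It gave 305 UMIs in MDAMB468 and 213 in CAL51 (chr10:89392546-89406486, plus strand), or 55.4 CPM (49.4 to 62.0) and 13.1 CPM (11.4 to 15.02), a ratio of 4.22 (3.53 to 5.05). That ratio rested on 1 barcode: 225 of the 305 UMIs (73.8%) had the same MDAMB468 barcode. Without that barcode and its satellite, 64 UMIs were left (11.8 CPM), and the log2 difference passed from 1.998 to -0.14. ISG15 moved with it, from 0.45 to 0.02, since 107 of its 403 UMIs (26.6%) had the same barcode. The number of genes at least 2-fold higher in MDAMB468 was then 6 in place of 7. These values leave CAL51 whole, although 10 of its barcodes held 182 of its 213 IFIT1 UMIs. The other CAL51 barcodes had 1.93 CPM of IFIT1. Without the highest IFIT1 barcode of each line, the levels were 14.5 CPM in MDAMB468 and 9.31 CPM in CAL51, a log2 difference of 0.59.

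OAS1, a sensor of viral RNA that switches on RNase L, gave 71 UMIs in 39 MDAMB468 barcodes and 2 UMIs in 1 CAL51 barcode (chr12:112906777-112933222, plus strand). Its level was 12.9 CPM (10.1 to 16.3) against 0.123 CPM (0.0149 to 0.445). The ratio of 105 rests on those 2 counts and its interval runs from 27.9 to 881. ISG20, an exonuclease that degrades RNA, gave 52 UMIs in MDAMB468 and 40 in CAL51 (chr15:88636153-88656483, plus strand), or 9.45 CPM (7.06 to 12.4) and 2.47 CPM (1.76 to 3.36), a ratio of 3.83 (2.49 to 5.94). Its UMIs were scattered 1 or a few at a time, over 37 and 34 barcodes.

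IFI6 and IFI27 are related small hydrophobic proteins of intracellular membranes. IFI6 gave 147 UMIs in MDAMB468 and 37 in CAL51 (chr1:27666061-27672218, minus strand), or 26.7 CPM (22.6 to 31.4) and 2.28 CPM (1.61 to 3.14), a ratio of 11.7 (8.12 to 17.3). These UMIs came from 27 MDAMB468 barcodes (8.82%), and the 10 highest held 128 of the 147. IFI27 gave 33 and 9 UMIs (chr14:94104836-94116698, plus strand), or 5.998 CPM (4.13 to 8.42) and 0.555 CPM (0.254 to 1.05), a ratio of 10.8 (5.06 to 25.7). All 33 UMIs in MDAMB468 stood in 8 barcodes, and the 9 in CAL51 stood in 9. In CAL51 the 10 barcodes highest in IFI6 held 19 of its 37 UMIs, and 9 UMIs of IFI27 are too few to describe a spread. The IFI27 paralog IFI27L1 had 145 and 360 UMIs, a log2 difference of 0.24.

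The rest of the pathway was read from lists of its other genes. Of 44 further interferon-stimulated genes, 38 passed the minimum, and 22 were at least 2-fold higher in MDAMB468, 4 in CAL51 and 12 within 2-fold, with a median log2 difference of 1.25 (1.25 too with the 3 genes at 0 UMIs in a line set at their bound). Of the 22, 10 had under 20 UMIs in CAL51 and so passed the minimum only through the line in which they were higher. Without the IFNB1 barcode described below and its satellite, 19 were higher in MDAMB468 and 5 in CAL51, and without each gene's highest barcode 15 of 35 were higher in MDAMB468. IFIT2, IFIT3 and OASL, among the 22, had 3.68, 8.29 and 1.84 CPM left in MDAMB468 without the IFNB1 barcode and its satellite. In CAL51, with every barcode kept, they had 17.3, 11.6 and 2.65 CPM. Without the 10 CAL51 barcodes highest in IFIT1, also described below, CAL51 had 2.56, 5.55 and 0.686 CPM. The direction for these 3 genes thus depends on which line keeps its high barcodes. The antiviral GTPase MX1 had 313 UMIs in MDAMB468 and 11 in CAL51 (5.11). UBE2L6 (4.51) and the growth regulator SAMD9 (81 and 6 UMIs, 3.52) followed it. The virion tether BST2 had 476 and 152 UMIs (3.08). The lowest values were those of EPSTI1 (0 and 25 UMIs, -1.35, at least 2.83-fold higher in CAL51 against a floor of 3 counts in the MDAMB468 library, or 2.13-fold by the lower end of the exact interval), HERC5 (-1.25) and the dNTP hydrolase SAMHD1 (66 and 452 UMIs, -1.15). IFI16, a DNA sensor, had 1 UMI in MDAMB468 and 0 in CAL51.

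Receptors and signal transducers had median log2 differences of 0.46 and 0.78. Of 6 receptor genes, only IFNGR1, the interferon gamma receptor chain, passed 2-fold (1266 and 344 UMIs, log2 difference 3.38). The type I receptor chains IFNAR1 (397 and 1729 UMIs, -0.56) and IFNAR2 (128 and 312, 0.26) lay within it. Of 10 transducer genes that passed the minimum, 5 were higher in MDAMB468 and 0 in CAL51. The kinase JAK1 had 457 and 131 UMIs (3.21), and the transcription factor IRF1 had 216 and 101 (2.48). IRF7 stood at 1.90, TYK2 at 1.77 and IRF9 at 1.29 (22 and 17 UMIs). Of these 5, only IRF9 had under 20 UMIs in CAL51 and so passed the minimum only through MDAMB468. STAT2, another factor of the pathway, had 50 and 302 UMIs (-0.96), within 2-fold. Among 7 inhibitors, the phosphatase PTPN2 (1.16) and USP18 (1.09) were higher in MDAMB468, and the signal inhibitor PIAS1 was higher in CAL51 (183 and 1443 UMIs, -1.39). Of 9 nucleic acid sensor genes, 4 were higher in MDAMB468: IFIH1, the sensor of long viral RNA (311 and 46 UMIs, 3.91), TLR3 (1.71), IKBKE (1.19) and RIGI (1.17). TLR3 (17 and 4 UMIs) and RIGI (19 and 16) had under 20 UMIs in CAL51 and passed the minimum only with those of MDAMB468. Over all genes that passed it, 15.8% were at least 2-fold higher in MDAMB468 and 18.6% in CAL51.

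**Figure D2:**
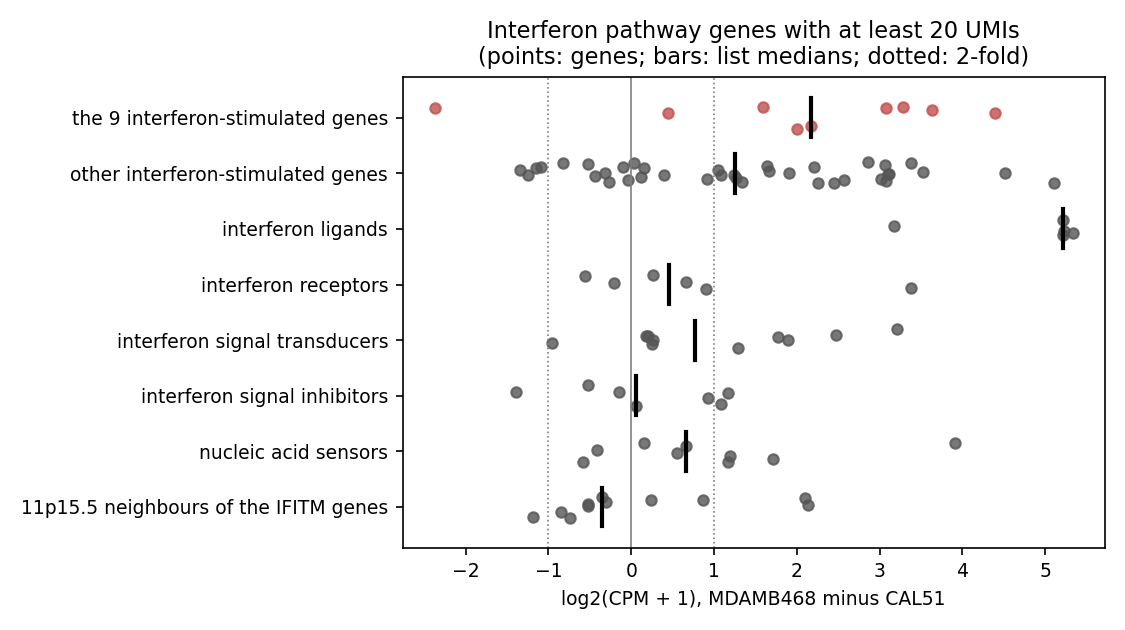
Log2(CPM + 1) in MDAMB468 minus that in CAL51 for each gene with at least 20 UMIs (points, with vertical jitter), by list; thick bars are list medians and dotted lines mark 2-fold. The 9 genes have a median of 2.17, the further interferon-stimulated genes 1.25 and the 11p15.5 neighbours -0.35.

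Interferon ligands were read almost entirely from the single MDAMB468 barcode that carried the IFIT1 signal. It held 68673 UMIs, 1.25% of the line's total, and was the barcode highest in IFNB1. It contained 210 of the line's 230 UMIs of IFNB1, 299 of 327 of IFNL1, 190 of 211 of IFNL2, 190 of 199 of IFNL3 and 41 of 44 of IFNL4. With them came 488 of 544 UMIs of IFIT2, 158 of 211 of IFIT3 and 142 of 162 of OASL, all RNA-binding or antiviral targets of the pathway. The chemokines CCL5 (97 of 105) and CXCL10 (97 of 136) were in it too.

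Among the 9 genes this barcode was high in some and not in others. It held 225 UMIs of IFIT1, 107 of ISG15, 23 of IFI6, 15 of OAS1 and 7 of ISG20, the line's highest barcode for each but IFI6. IFITM3 stood at 80 UMIs, or 1165 CPM of that barcode against 914 in the other barcodes. IFITM1 had 3 UMIs (43.7 CPM against 49.9), and IFI27 and IFITM2 had 0. MX1 had 5 of 313 and BST2 4 of 476. Besides the interferons, genes with at least 20 UMIs in it that stood furthest above the other barcodes included CXCL11, TNFAIP3, TNFSF15 and CCL20, the last 3 known as NF-kB targets or cytokines. A satellite of it had 2676 UMIs, with 16 of IFIT1 and 11 of IFNB1. In the CAL51 library a barcode of the same sequence had 4658 UMIs, with 24 of IFIT1 and 10 of IFNB1, and it is among the 31 left out.

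A different set of MDAMB468 barcodes carried IFI6. Leaving the IFNB1 barcode aside, the 8 barcodes highest in IFI6 made up 5.56% of the line's UMIs and held 102 of the 147 IFI6 UMIs, a share the ranking itself sets. The same 8 held 28 of 33 UMIs of IFI27 (84.8%), 21 of 24 of XAF1 (87.5%), 153 of 313 of MX1 (48.9%), 33 of 62 of IFI44 and 102 of 476 of BST2. ISG15 was present in all 8, with 96 UMIs, and IFIT1 in all 8 with 30. MX1, IFI44 and BST2 were likewise in all 8, whereas IFI27 was in 4, with 12 and 11 of its 28 UMIs in 2 of them. The cut at 8 was not set beforehand, and presence in all 8 depends on it. The next barcode by IFI6, with 3 UMIs of it, had 0 UMIs of ISG15, IFIT1, MX1 and IFI44 and 3 of BST2. The 8 had 3 of 544 UMIs of IFIT2, 1 of 162 of OASL, 0 of IFNB1, 2 of IFNL1 and 0 of CCL5. Their IFI6 level of 334 CPM was close to the 335 CPM of the IFNB1 barcode, while MX1 stood at 501 CPM against 72.8 CPM in that barcode. One of them, with 120123 UMIs against the line's median of 10016.5, was the only barcode of either line with a UMI of all 9 genes.

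In CAL51, IFIT1 also lay in few barcodes. The 10 highest held 182 of its 213 UMIs (85.4%, set by the ranking) and 1.16% of the line's UMIs. They contained 240 of 281 UMIs of IFIT2, 99 of 188 of IFIT3, 32 of 43 of OASL, 275 of 867 of ISG15, 88 of 240 of HERC5 and 214 of 301 of CCL5. IFIH1 had 28 of 46 there. IFI6 had 7 of 37 UMIs there, or 37.3 CPM against 1.87 CPM in the other CAL51 barcodes. MX1 had 2 of 11, or 10.7 against 0.561 CPM, and BST2 9 of 152, or 47.9 against 8.92 CPM. IFITM1 had 2 of 23 and IFI27 0 of 9. The only OAS1 UMIs of the line, 2, were in the barcode highest in IFIT1, which also held all CAL51 UMIs of IFNB1 (1), IFNL1 (10) and IFNL2 (1). Another of the 10, with 73498 UMIs, had 109 UMIs of IFITM3, 57 of IFITM2 and 89 of ISG15, the line's highest for each. The next barcodes had 21, 16 and 45.

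**Figure D3:**
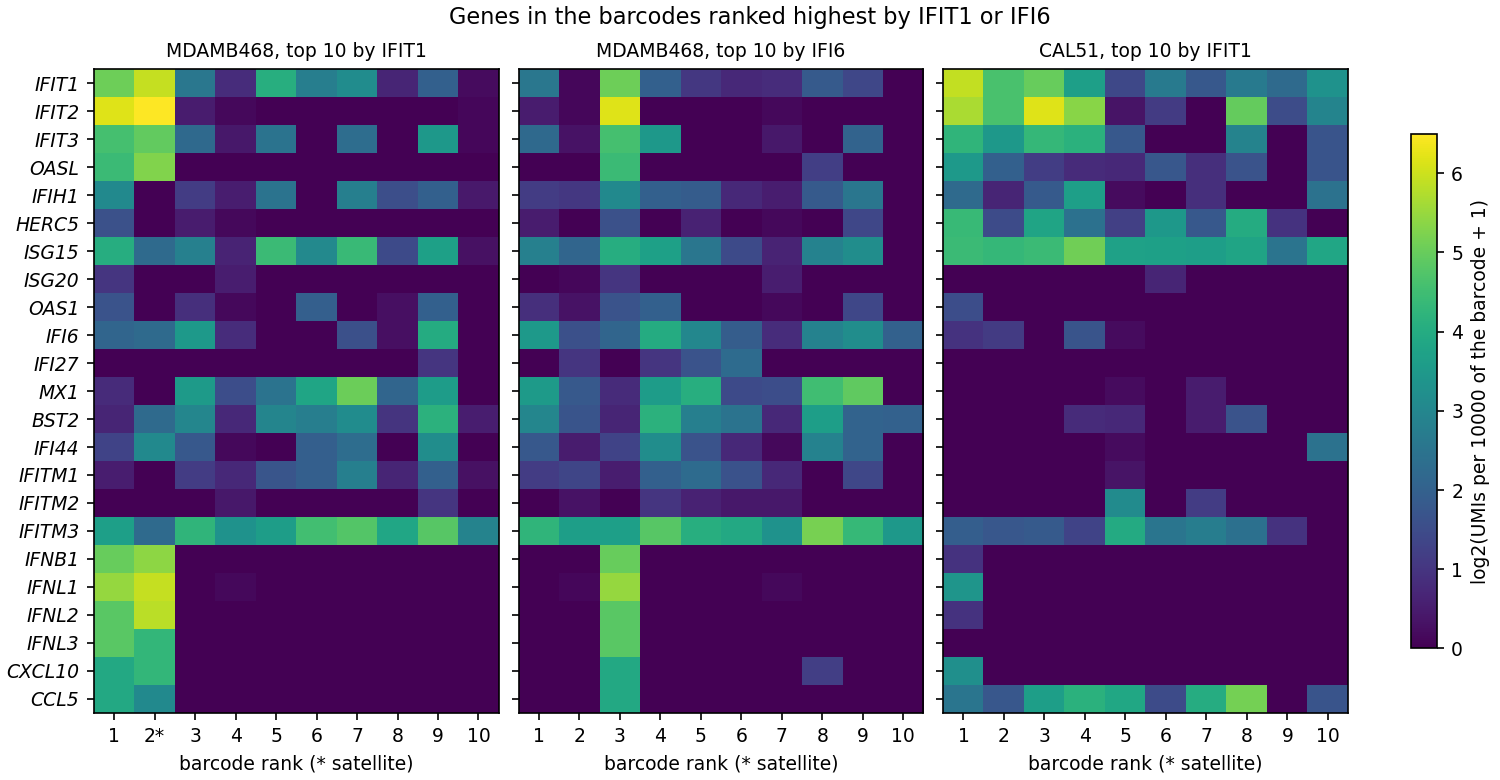
UMIs of 23 genes per 10000 UMIs of the barcode, as log2(value + 1), in the 10 MDAMB468 barcodes highest in IFIT1, the 10 highest in IFI6 and the 10 CAL51 barcodes highest in IFIT1 (columns in rank order, * for satellites). The barcode with IFNB1 and IFNL1 to IFNL3 is ranked 1 by IFIT1 and 3 by IFI6 in MDAMB468; 8 of the other 9 IFI6 barcodes show both MX1 and BST2 with little or no IFIT2, and the CAL51 barcodes mostly show IFIT2, HERC5 and CCL5.

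To compare cells at one depth, each barcode was thinned to 2500 UMIs, which every barcode reached. The share of barcodes with a UMI was then 87.9% in MDAMB468 and 19.4% in CAL51 for IFITM3, 10.7% and 0.364% for IFITM1, 1.93% and 12.9% for IFITM2, and 12.7% and 7.78% for ISG15. For IFIT1 it was 3.01% and 1.30%, for IFI6 3.94% and 0.494%, for OAS1 2.89% and 0.0297%, for ISG20 2.04% and 0.658%, and for IFI27 0.817% and 0.104%. Any of the 9 genes was seen in 90.4% of thinned MDAMB468 barcodes and 34.6% of thinned CAL51 barcodes. Each library holds 1 line and so no cells known to lack these genes, and the part of free RNA in these shares was not tested.

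The spread between barcodes differed among the genes. The variance divided by the mean (Fano factor, 1 for pure sampling) had a median of 1.05 over 3909 genes in MDAMB468 and 1.06 over 4255 genes in CAL51. IFIT1 reached 9.29 in MDAMB468, rank 3 of those 3909 genes, and 7.19 in CAL51, where its mean was under the 0.1 UMIs asked of ranked genes. ISG15 reached 2.59 and 3.04 and ranked 16 in each line. IFI6 reached 2.45 and IFI27 1.73 in MDAMB468, both below the ranked range. IFITM3 stood at 1.27 in MDAMB468 (rank 201) and 1.20 in CAL51 (rank 370), IFITM1 at 1.14 in MDAMB468 (rank 545) and IFITM2 at 1.19 in CAL51 (rank 406). The 95th percentile of ranked genes was 1.28 in MDAMB468 and 1.30 in CAL51, so the IFITM genes lay above the median and below that percentile, and IFIT1 in MDAMB468 and ISG15 in both lines lay above it. By the spread in excess of sampling relative to the squared mean, the IFITM genes ranked higher in 3 of these 4 cases: IFITM1 was 102 and IFITM3 2194 in MDAMB468, and IFITM2 was 75 and IFITM3 209 in CAL51. Those 3 lay above the 95th percentile of that measure. IFITM1 had 1.17 against 0.897 in MDAMB468, where IFITM3 had 0.121. In CAL51 IFITM2 had 1.26 and IFITM3 0.859 against 0.855. Without the IFNB1 barcode and its satellite, the Fano factor in MDAMB468 was 2.90 for IFIT1, 2.11 for ISG15 and 2.68 for IFI6.

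**Figure D4:**
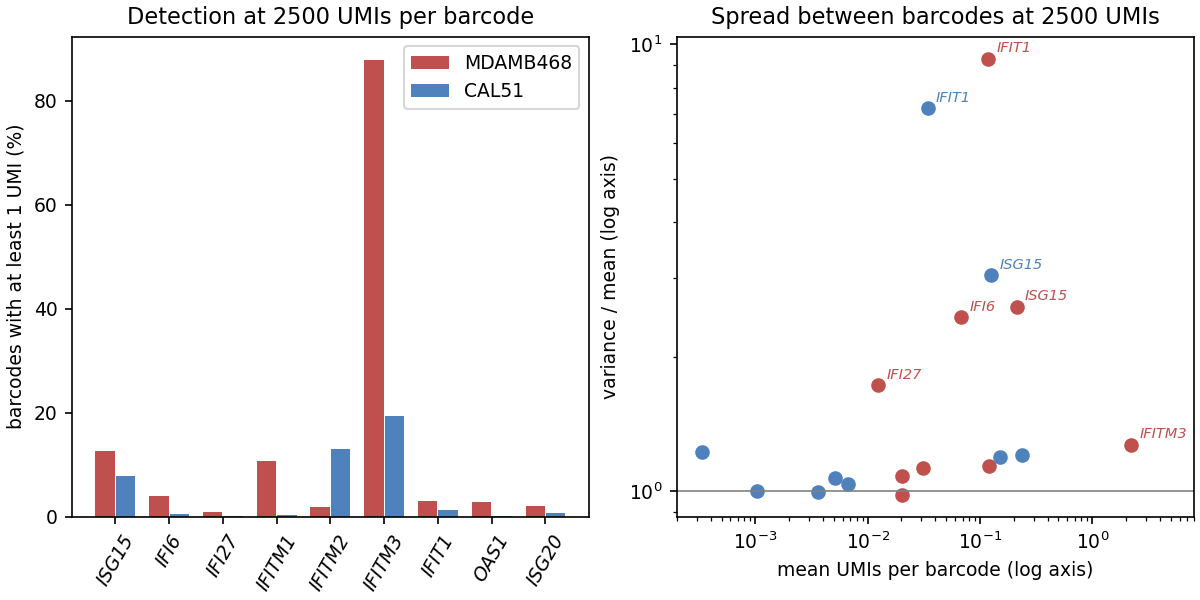
Left, percent of barcodes with at least 1 UMI of each gene after thinning to 2500 UMIs, MDAMB468 in red and CAL51 in blue. Right, variance over mean against mean UMIs per thinned barcode, both on log axes, with a line at 1; IFIT1 lies at 9.29 and 7.19 and IFITM3 at 1.27 and 1.20.

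Co-variation between cells was weak at this depth. In MDAMB468 the 6 pairs among ISG15, IFITM1, IFITM3 and IFIT1, the genes with a thinned mean of at least 0.1, had a median Pearson correlation of log2(UMIs + 1) of 0.14 over 306 barcodes, against a median of -0.00 and a 95th percentile of 0.10 over all gene pairs. The highest was ISG15 with IFIT1 at 0.45, then ISG15 with IFITM3 at 0.20, and the lowest IFITM3 with IFIT1 at 0.08. In CAL51 the 3 pairs among ISG15, IFITM2 and IFITM3 had a median of 0.07 over 1346 barcodes, where the 95th percentile of all pairs was 0.05. IFITM2 with IFITM3 gave 0.15 and ISG15 with IFITM2 0.02. Transcripts of IFITM2 and IFITM3 share sequence, and its part in their correlation was not tested. The barcodes of a line share 1 library, so these values describe that library.

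The genes most like the sum of the 9 in MDAMB468 were MX1 (Pearson correlation 0.32), IFIT2 (0.23), MGP (0.22), BST2 (0.22) and PLAAT4 (0.21), over 306 barcodes and among 3903 genes. In CAL51 they were B2M (0.17), the light chain of MHC class I, SAT1 (0.12), NTS (0.11), TIMP1 (0.11) and MDK (0.10), over 1346 barcodes and among 4250 genes. The sum is mostly IFITM3 in MDAMB468 and IFITM3 with IFITM2 and ISG15 in CAL51. Correlations of this size in sparse counts describe these libraries and are no finding about the order of the genes or about a difference between the lines.

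CAL51 barcodes fell into 4 clusters when grouped without the interferon genes, and MDAMB468 into 1. IFITM3 had 126 CPM (117 to 136) in cluster 1, led by COL2A1 and NTS, and 119 CPM (106 to 132) in cluster 4, led by CD24 and TSTD1. It had 54.8 CPM (48.1 to 62.1) in cluster 0, led by ALPL and ITLN1, and 72.7 CPM (64.3 to 81.9) in cluster 3, led by the mitotic genes PLK1 and PIF1. IFITM2 followed the same split, at 73.1 and 88.0 CPM in clusters 1 and 4 against 28.5 and 48.8 CPM in clusters 0 and 3. IFITM2 and IFITM3 share 188 transcript windows of 50 bases, and the part of shared sequence in this parallel was not tested. ISG15 ranged only from 45.0 to 63.0 CPM. IFIT1 had 7.47, 6.34, 20.1 and 26.2 CPM in clusters 0, 1, 3 and 4, and the 10 barcodes that held most of it were divided 2, 4, 2 and 2 over the same clusters. The highest barcode alone gave 62 of the 71 IFIT1 UMIs of cluster 4. In cluster 1 a single barcode gave 109 of the 678 UMIs of IFITM3, 57 of the 392 of IFITM2 and 89 of the 338 of ISG15. Clusters of 1 library are no replicates, so these differences were not tested.

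**Figure D5:**
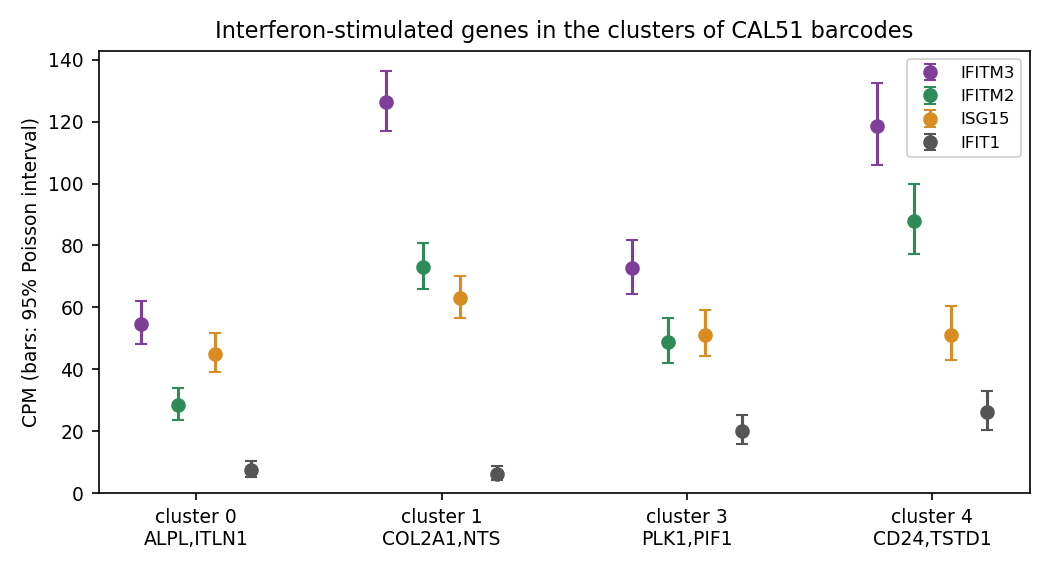
CPM of IFITM3, IFITM2, ISG15 and IFIT1 in the 4 clusters of CAL51 barcodes (points; bars are exact 95% Poisson intervals), with the leading genes of each cluster on the axis. IFITM3 and IFITM2 are both higher in clusters 1 and 4 (IFITM3 126 and 119 CPM) than in clusters 0 and 3 (54.8 and 72.7 CPM).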

How the data were processed

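The values are counts: whole-number UMIs per gene and barcode that the authors deposited for 2 Drop-seq libraries, with no normalization. STARsolo made them, per the submitters' processing notes. The sources used here name no version, genome build or annotation. The prefix of a barcode gave its line, and the deposited names (a unit of their own, with no value) gave gene and barcode. Of 30796 gene identifiers, 30730 matched a symbol of GENCODE release 29 (GRCh38), which gave names and spans. That the counts rest on the same build was not checked.

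All deposited barcodes were kept (the lowest total was 2501 UMIs), and no doublet caller was run, so barcodes of very high UMIs may hold more than 1 cell. The 31 barcode sequences found in both libraries were left out of CAL51. Levels are summed UMIs per 1000000 (CPM), and differences are log2(CPM + 1) with a pseudocount of 1 CPM, for genes with at least 20 UMIs. Poisson, conditional and Clopper-Pearson intervals are exact at 95%. UMIs are not scaled by transcript length, so levels were not compared between genes. With 1 library per line there is no test and no replicate check. Barcodes were thinned without replacement to 2500 UMIs and 20 thinnings were averaged. Clusters used scanpy 1.11.5 (2000 variable genes, 30 components, 15 neighbours) and leidenalg 0.10.2 at a resolution of 0.5. TMM factors came from edgeR 4.0.16, used for scaling only. Python 3.11.15, numpy 2.4.6, scipy 1.17.1 and R 4.3.3 were used. Scripts were tested on simulated data.

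The 9 genes, the pathway lists and the markers were chosen with earlier results of these data known. Named were all 9 genes, in each list up to 3 genes past 2-fold at either end plus fixed key genes, and the 5 genes most like their sum. TYK2, RIGI, UBA7, IFI27L1, IFNL2, IFNL4 and the genes described in single barcodes or barcode groups were chosen after their values were seen. Alternatives covered shared and satellite barcodes, pseudocount, scaling, minimum depth, weighting, gene minimum and thinning depth. Leaving out each gene's highest barcode, or the IFNB1 barcode and its satellite, was added after seeing the data.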

Additional observations from a re-analysis of the deposited data

Results flagged for a closer look

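The 31 CAL51-labelled barcodes whose sequence also occurs in MDAMB468 were left out of the main comparisons and entered only the alternative that kept them. With them kept in CAL51, the log2 difference of IFITM3 was 3.11 in place of 3.28. These barcodes held 257 UMIs of the 9 genes in 135240 UMIs. IFITM3 gave 207 of the 257, or 1531 CPM, against 917 CPM in MDAMB468 and 93.3 CPM in the other CAL51 barcodes. All 24 UMIs of IFIT1 in them stood in the barcode that has the sequence of the MDAMB468 barcode highest in IFNB1. IFI6, IFI27 and OAS1 had 0.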

How the results depend on the processing

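The count of the 9 genes at least 2-fold higher in CAL51 was 1 under every alternative run, and that in MDAMB468 was 7 except at a pseudocount of 10 CPM (5) and without each gene's highest barcode or the IFNB1 barcode and its satellite (6 in each). The log2 difference of IFIT1 was 1.998, and 0.59 without the highest barcode of each line. It was -0.14 without the IFNB1 barcode and its satellite, which trims MDAMB468 only. Over the 9 genes the median of 2.17 became 3.22 at a pseudocount of 0.1 CPM and 1.18 at 10 CPM, and the further interferon-stimulated genes higher in MDAMB468 went from 22 to 14 and in CAL51 from 4 to 1 at 10 CPM, which shrinks low genes by construction. TMM scaling shifted the median of all genes by -0.12 and reversed none of the 9. The median pair correlation in MDAMB468 of 0.14 was 0.065 at 1000 UMIs, 0.48 without thinning and 0.19 without satellites. In CAL51 the value of 0.07 was 0.034 at 1000 UMIs, 0.15 at 5000 and 0.28 without thinning. The cause of these changes was not tested, beyond the depth that thinning itself sets. Of the single-gene values under alternatives, 21 log2 differences and 36 detection shares moved beyond their error, and 68 and 54 did not. A further 1 log2 difference, that of IFIT1 without the IFNB1 barcode and its satellite, reversed its sign. Fano factors had no computed error and were sorted by a fixed relative change from the main value, by which 47 moved and 43 did not. No paired analysis was possible because each line is 1 library. Low counts limit OAS1, IFI27 and IFITM1 in CAL51 (2, 9 and 23 UMIs).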

Other observations

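By cell cycle call, ISG15 had its highest value in barcodes called G1 in both lines, with overlapping intervals of G1 and G2M in MDAMB468. It had 103 CPM (76.8 to 135) in 35 G1 barcodes of MDAMB468 against 50.05 CPM in S and 76.3 CPM in G2M, and 100.3 CPM (79.2 to 125) in 84 G1 barcodes of CAL51 against 44.6 and 53.3 CPM. These G1 values rest on 52 and 77 UMIs. The 10 barcodes highest in ISG15 held 224 of its 403 UMIs in MDAMB468 and 333 of 867 in CAL51. How those barcodes fell among the phases is not covered by the ISG15 intervals. IFI6 in MDAMB468 had 67.3 CPM (46.6 to 94.0) in G1, 31.1 CPM in S and 20.1 CPM in G2M. The G1 value rests on 34 UMIs, and 10 barcodes held 128 of the line's 147 IFI6 UMIs. The interval does not cover how those few barcodes fell among the phases. IFITM3 differed less, at 1067, 874 and 910 CPM in MDAMB468 and 129, 89.1 and 92.3 CPM in CAL51. The IFNB1 barcode, with 107 ISG15 UMIs, was called G2M. Free RNA can enter phase calls, and its part was not tested.

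Across 4 equal groups of barcodes by depth, IFITM3 in MDAMB468 had 774, 1020, 906 and 915 CPM from the shallowest to the deepest. In CAL51 the values were 114, 94.6, 91.7 and 90.3 CPM. The shallowest MDAMB468 group held 54 of the 64 satellites.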
